A study of Arabidopsis thaliana with 29 samples.

Results

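Among the 7034 H3K27me3 peaks of the LHP1 mutant tfl2-2 on chromosomes 1 to 5, 465 overlapped by at least 1 bp both a peak of the second LHP1 mutant line, lhp1-6, and a peak of the first clf-29 library, and overlapped no peak of either Col-0 library. These 465 regions are called shared new peaks here. The other tfl2-2 peaks were 1316 other new peaks, which also overlapped no Col-0 peak, and 5253 peaks that did. The members were chosen by the peak calls in these 5 lists alone, so the presence of these peaks in tfl2-2, lhp1-6 and clf-29 and their absence from Col-0 are the definition of the set and are not results.

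H3K27me3 is the trimethylated form of lysine 27 of histone H3, a mark of genes held silent by Polycomb group (PcG) proteins. In Arabidopsis the mark is written by PRC2, whose catalytic subunits in seedlings are CLF and SWN, and PRC1 contains the RING proteins AtBMI1A, AtBMI1B, AtRING1A and AtRING1B. LHP1 carries a chromodomain that binds H3K27me3, and loss of CLF or LHP1 is known for early flowering and curled leaves with floral gene expression. A region with a called peak in plants lacking one of these proteins and none in the wild type is the reverse of what loss of a Polycomb protein is best known for. The study also reported regions with more of the mark in clf-29 than in Col-0. Those outside Col-0 peaks tended, by its account, to carry the mark in Col-0 at a level too low to be called. A new peak here therefore need not be a newly marked region.

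All plants were Arabidopsis thaliana of the accession Col-0 or mutants described in that background, grown in long days of 16 h light and harvested after 2 weeks. The mutants were clf-29 (in CLF), tfl2-2 and lhp1-6 (both in LHP1, 1 library each, treated by the study as replicates of each other and called LHP1 mutant lines), atbmi1a,b (double mutant in AtBMI1A and AtBMI1B), atring1a,b (double mutant in AtRING1A and AtRING1B), and for RNA-seq only clf-29swn-21 (double mutant in CLF and SWN) and swn-21. The labels describe seedlings without roots. They give 21 °C for the first library of clf-29, atbmi1a,b, atring1a,b, clf-29swn-21 and Col-0 and for tfl2-2, and 22 °C for the second libraries and for both swn-21 libraries. For lhp1-6 they give 22 °C for ChIP-seq and 21 °C for RNA-seq. The methods of the study give 22 °C throughout, with clf-29swn-21 plants taken whole from medium and the other genotypes from soil, so in clf-29swn-21 the genotype, the medium and the presence of roots cannot be told apart. The mark was measured in 10 ChIP-seq libraries (2 each of clf-29, atbmi1a,b, atring1a,b and Col-0, 1 each of tfl2-2 and lhp1-6) and transcripts in 14 RNA-seq libraries, 2 per group. The tissue holds many cell types, so a change in the number of cells of a type and a change of RNA per cell cannot be told apart.

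The deposited peak lists held 2209 to 7523 peaks per library, with a position and a score but no read counts. Of the 5 lists in the rule, those of Col-0 held 5055 and 2983 peaks. The tfl2-2 list held 7034, the lhp1-6 list 7523 and the first clf-29 list 5228. How far these list sizes set the number of shared new peaks was not tested. The RNA-seq libraries had 17277027 to 36205758 reads on genes. The mutated genes were read first. CLF stood at 0.719 and 0.441 CPM (reads of a gene divided by the library's normalized total, on a scale of 1e6) in clf-29, at 1.55 and 2.41 CPM in clf-29swn-21 and at 38.8 and 29.2 CPM in Col-0. LHP1 stood at 0 CPM in tfl2-2 and 1.72 CPM in lhp1-6, against 28.7 and 35.9 CPM in Col-0. AtBMI1B was lower in atbmi1a,b (4.37 and 4.87 CPM) than in Col-0 (12.2 and 16.8 CPM), and AtRING1B was lower in atring1a,b (1.64 and 0.69 CPM) than in Col-0 (8.14 and 15.7 CPM). AtRING1A was far higher in atring1a,b (601 and 827 CPM) than in Col-0 (14.4 and 18.7 CPM), AtBMI1A stood at 13.9 and 22.6 CPM in atbmi1a,b, against 14.5 and 11.3 CPM in Col-0, and SWN at 118 and 107 CPM in clf-29swn-21, against 48.7 and 71.7 CPM in Col-0. Reads summed over a whole gene include parts outside an insertion, so for these 3 genes the counts do not check the label. The study reports its own check of the genotype of every sample on the RNA-seq reads, which was not repeated here. Of the 20 PcG and H3K27 demethylase genes listed, 0 were target genes of a shared new peak. Summed over 4 leaf markers, the level was 2357 to 3460 CPM in clf-29swn-21 and 7837 to 11580 CPM in the other libraries.

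The sequence under 6 of the regions is shown to place the mark on named genes. They are the peaks over TCP1, BRC1 and TCP12, which make up the CYC/TB1 clade of the TCP transcription factors, over NTT, the target gene of the peak with the highest tfl2-2 score, over ICL (isocitrate lyase, an enzyme of the glyoxylate cycle that turns stored oil into sugar) and over LTP3 (a lipid transfer protein). Each stretch is 200 bp of the forward strand of RefSeq's TAIR10.1 assembly, chosen within the peak as the one with the most matches to the 5 motifs searched and then the one closest to the peak centre, free of annotated untranslated exon bases. Capitals mark motif matches on either strand.
TCP1, chr1:25169055-25169254, coding exon: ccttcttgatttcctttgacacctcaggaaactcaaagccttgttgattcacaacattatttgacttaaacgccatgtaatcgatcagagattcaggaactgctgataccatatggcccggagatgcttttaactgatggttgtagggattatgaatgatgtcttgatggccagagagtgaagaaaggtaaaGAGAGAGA
BRC1, chr3:6384981-6385180, coding exon: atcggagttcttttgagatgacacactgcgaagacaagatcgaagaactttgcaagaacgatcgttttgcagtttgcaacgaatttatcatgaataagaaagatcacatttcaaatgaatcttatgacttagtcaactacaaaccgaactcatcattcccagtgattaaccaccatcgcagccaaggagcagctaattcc
TCP12, chr1:25847457-25847656, coding exon and intron: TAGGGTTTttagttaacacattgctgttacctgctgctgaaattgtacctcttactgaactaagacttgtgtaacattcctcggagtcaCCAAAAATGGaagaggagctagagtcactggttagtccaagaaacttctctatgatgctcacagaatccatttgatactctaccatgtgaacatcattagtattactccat
NTT, chr3:21371275-21371474, coding exon: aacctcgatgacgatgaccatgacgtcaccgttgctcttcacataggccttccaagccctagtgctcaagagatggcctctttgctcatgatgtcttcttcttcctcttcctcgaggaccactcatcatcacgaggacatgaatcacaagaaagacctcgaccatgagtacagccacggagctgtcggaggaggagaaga
ICL, chr3:7654093-7654292, coding exon and intron edge: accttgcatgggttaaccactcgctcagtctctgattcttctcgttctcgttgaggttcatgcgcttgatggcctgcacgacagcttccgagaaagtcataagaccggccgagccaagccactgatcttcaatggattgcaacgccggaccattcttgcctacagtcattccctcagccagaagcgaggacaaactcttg
LTP3, chr5:23928752-23928951, upstream of the transcription start: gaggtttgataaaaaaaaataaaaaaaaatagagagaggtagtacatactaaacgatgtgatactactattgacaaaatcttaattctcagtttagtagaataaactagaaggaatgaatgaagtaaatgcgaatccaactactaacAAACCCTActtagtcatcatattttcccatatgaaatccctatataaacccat
The match in TCP1 is the GA repeat, the matches in TCP12 are the telobox and the CArG box, and the match in LTP3 is the telobox. The stretches in BRC1, NTT and ICL hold none of the 5 motifs, as no stretch in those peaks that was free of untranslated exon bases did.

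The shared new peaks were shorter and lower in score than peaks that were already present in Col-0, and longer and higher in score than the other new peaks. Their median length was 1244 bp (range 535 to 6479 bp), against 1031 bp for the other new peaks and 1593 bp for the peaks overlapping a Col-0 peak. Their median tfl2-2 score was 182 (range 50.3 to 1144), against 90.2 for the other new peaks and 381 for the peaks overlapping a Col-0 peak. In lhp1-6 and in the first clf-29 list the peaks they overlapped had median scores of 119 and 102. The scores come from the lists that chose the members and are given as a description.

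Of the 465 members, 133 were on chromosome 1, 67 on chromosome 2, 87 on chromosome 3, 59 on chromosome 4 and 119 on chromosome 5. Per megabase this gave 3.17 on chromosome 4 to 4.41 on chromosome 5, while peaks that overlapped a Col-0 peak numbered 42.7 to 46.4 per megabase. The nearest Col-0 peak lay at a median distance of 3787 bp, 99 members lay within 1000 bp of one and 127 lay more than 10000 bp from any. At the edge of the rule, 9 members lay within 100 bp of a Col-0 peak, the closest at 11 bp, and 2 members overlapped lhp1-6 or clf-29 by under 100 bp, the smallest overlap being 11 bp. Just outside it, 4 of the 4276 peaks present in all 3 mutant lists overlapped a Col-0 peak by under 100 bp, the smallest overlap being 5 bp. The median member was covered over 70.7% of its length in lhp1-6 and 88.8% in the first clf-29 list.

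Most peaks had their centre inside a gene. The centre of 399 members was inside a gene body (85.8%, with a 95% Wilson interval of 82.3% to 88.7%), that of 25 within 1000 bp upstream of a gene only, and that of 41 in neither. Of the shared new peaks 75.3% (71.2% to 79.0%) had their centre in an exon, against 71.4% (68.9% to 73.7%) of the other new peaks and 67.4% (66.1% to 68.6%) of the peaks overlapping a Col-0 peak. Centres in an intron made up 10.5% (8.06% to 13.7%) of the shared new peaks, 11.2% (9.65% to 13.1%) of the other new peaks and 16.9% (15.9% to 17.9%) of the peaks overlapping a Col-0 peak. For the 416 members with a protein-coding target gene the centre lay at a median of 528 bp downstream of the closest transcription start of such a gene. The medians were 520 bp for the other new peaks and 606.5 bp for peaks overlapping a Col-0 peak. Taking the closest start favours short distances, and gene length was not taken into account. The intervals here and below cover counting error only, since each list is 1 library.

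**Figure D1:**
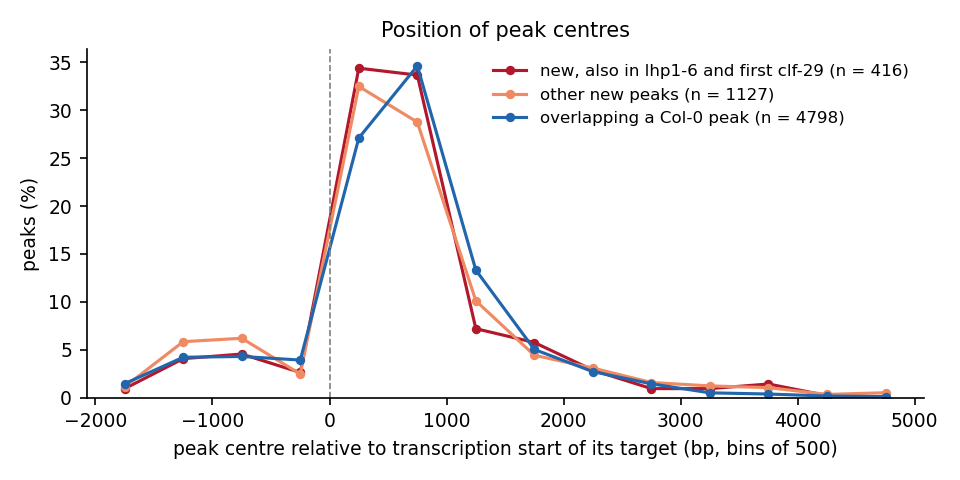
Distance of peak centres from the transcription start of the closest protein-coding target gene (x axis, bp, positive downstream), as the percentage of tfl2-2 peaks per bin of 500 bp, for shared new peaks, other new peaks and peaks overlapping a Col-0 peak. In all 3 classes most centres lie within 1000 bp downstream of the start, where bins of 34.4% and 33.7% hold the shared new peaks.

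Whether the regions have a called peak in libraries that the rule did not use was read from the other 5 lists. In the second clf-29 list, 313 of the 465 shared new peaks (67.3%, 62.9% to 71.4%) had a peak, against 32.8% (30.3% to 35.3%) of the other new peaks and 75.4% (74.3% to 76.6%) of the peaks overlapping a Col-0 peak. Of those 313, 312 were covered over at least 50% of their length. The rule required a peak in the first clf-29 list, which only 159 of the 1316 other new peaks had. A higher share than theirs in another clf-29 library therefore follows from the choice of members and is no separate result. The first atbmi1a,b list had a peak at 29.7% (25.7% to 34.0%) of the shared new peaks, 22.9% (20.8% to 25.3%) of the other new peaks and 71.6% (70.4% to 72.8%) of the peaks overlapping a Col-0 peak. The second atbmi1a,b list gave 23.4% (19.8% to 27.5%), 32.2% (29.7% to 34.8%) and 56.4% (55.1% to 57.8%) for the same classes, so the shared new peaks stood below the other new peaks in the second list and above them in the first. The shared new peaks were found again in the second clf-29 library in most cases and in either atbmi1a,b library in a minority. Of the 465, 189 (40.6%, 36.3% to 45.2%) had a peak in the second clf-29 list and in neither atbmi1a,b list, against 21.3% (19.2% to 23.6%) of the other new peaks and 9.99% (9.21% to 10.8%) of the peaks overlapping a Col-0 peak. The difference from the other new peaks again depends on the use of the first clf-29 list in the rule. The shared new peaks were also chosen for having no Col-0 peak. Differences from the peaks overlapping a Col-0 peak, here and in the other lists below, are therefore descriptions and no separate result.

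**Figure D2:**
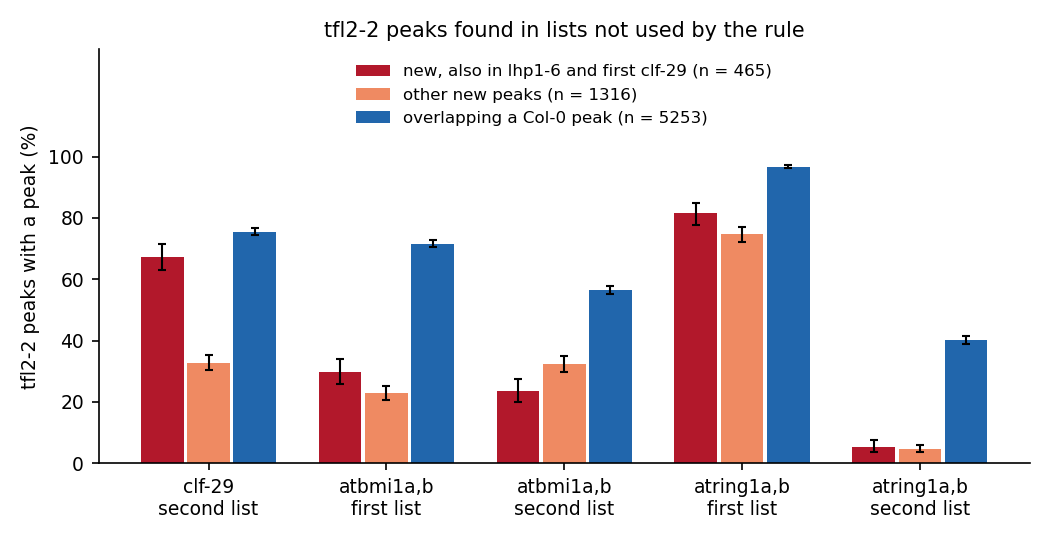
Percentage of tfl2-2 peaks that overlap a peak in each list the rule did not use, for 465 shared new peaks, 1316 other new peaks and 5253 peaks overlapping a Col-0 peak; bars show 95% Wilson intervals. Shared new peaks stand at 67.3% in the second clf-29 list and at 29.7% and 23.4% in the atbmi1a,b lists.

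The atring1a,b libraries disagreed with each other. In the first, 81.5% (77.7% to 84.8%) of the shared new peaks had a peak, against 74.6% (72.2% to 76.9%) of the other new peaks and 96.7% (96.1% to 97.1%) of the peaks overlapping a Col-0 peak. In the second the shares were 5.16% (3.49% to 7.56%), 4.64% (3.63% to 5.91%) and 40.1% (38.8% to 41.4%). The first list covers 25.98 Mb with a median peak length of 2984 bp and the second 4.94 Mb with 2011 bp, against 7.72 to 11.6 Mb in the other 8 lists, so overlap with the first list also counts regions that lie in very wide peaks. A total of 131 shared new peaks (28.2%, 24.3% to 32.4%) had a peak in both the first atbmi1a,b and the first atring1a,b list, and 10 (2.15%, 1.17% to 3.91%) had a peak in none of the 5 lists.

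Because strong peaks are found again more often, the shares were also read within 6 classes of the tfl2-2 score, a comparison chosen after seeing the data. In the second clf-29 list the shared new peaks stood at 34.1% (21.6% to 49.5%) for scores of 50 to 75, 59.2% (45.2% to 71.8%) for 75 to 100, 58.7% (48.5% to 68.2%) for 100 to 150, 74.2% (66.2% to 80.9%) for 150 to 250, 76.6% (68.5% to 83.1%) for 250 to 500 and 87.0% (67.9% to 95.5%) above 500. Peaks overlapping a Col-0 peak stood at 34.3%, 38.2%, 49.8%, 63.9%, 82.0% and 91.6% in the same classes, and other new peaks at 19.2%, 25.9%, 41.0%, 50.8% and 75% in the first 5. Between scores of 75 and 250 the shares of the shared new peaks were the higher ones. Of the 6 classes, only that from 75 to 100 had intervals that did not meet those of the peaks overlapping a Col-0 peak. The shared new peaks were all chosen for a peak in the first clf-29 list, which the other peaks were not, so these contrasts are descriptions. In the first atbmi1a,b list the shared new peaks stood at 14.6%, 26.5%, 29.3%, 26.5%, 39.1% and 30.4%, and the peaks overlapping a Col-0 peak at 52.5%, 52.3%, 55.7%, 62.3%, 70.2% and 84.9%, with intervals that did not meet in any of the 6 classes. The rule split these peaks by overlap with a Col-0 peak, so this contrast is a description as well. The other new peaks stood at 18.4%, 21.1%, 23%, 32.6% and 38.5% in the first 5 classes, close to the shared new peaks. The classes hold 23 to 132 shared new peaks.

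**Figure D3:**
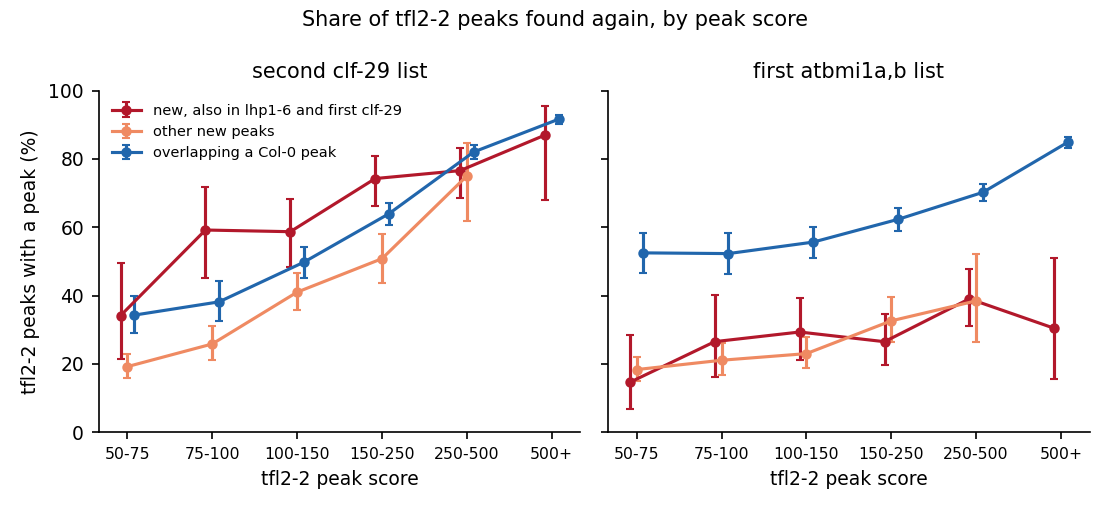
Percentage of tfl2-2 peaks that overlap a peak in the second clf-29 list (left) and the first atbmi1a,b list (right), by class of the tfl2-2 score, with 95% Wilson intervals; a class of under 20 peaks is not drawn. Shared new peaks rise with the score to 87.0% in clf-29, and lie between 14.6% and 39.1% in atbmi1a,b, below the peaks overlapping a Col-0 peak.

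Single regions are given as examples. The peak over TCP1 (AT1G67260, minus strand, chr1:25167418-25169707) spanned chr1:25168145-25170095 in tfl2-2 with a score of 849, chr1:25166948-25169912 in lhp1-6 and chr1:25167237-25172323 in the first clf-29 list, and the nearest Col-0 peak was 12521 bp away. The second clf-29 list had a peak there at chr1:25167084-25170638 and the first atbmi1a,b list at chr1:25165448-25173471. The peak over BRC1 (AT3G18550, plus strand, chr3:6383289-6385815) spanned chr3:6383031-6387129 in tfl2-2 and covered the whole gene, with a Col-0 peak 3188 bp away, and was found in the second clf-29 list at chr3:6383032-6390876 and in neither atbmi1a,b list. The peak over TCP12 (AT1G68800, minus strand, chr1:25845892-25850131) spanned chr1:25846682-25850012, with a Col-0 peak 5105 bp away, and was likewise found in the second clf-29 list and in neither atbmi1a,b list. All 3 genes of the clade thus carried a shared new peak, a grouping noticed after the values were seen.

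The 5 motifs searched in the 1000 bp around each centre, on both strands, were the telobox (AAACCCTA), a GA repeat (GAGAGAGA), the RY element (CATGCATG), the G-box (CACGTG) and the CArG box. None of the 5 contains another. The GA repeat was present in 21.3% (17.8% to 25.2%) of the shared new peaks, 15.3% (13.5% to 17.4%) of the other new peaks, 18.3% (17.3% to 19.4%) of the peaks overlapping a Col-0 peak and 14.8% of the 1000 bp upstream of all 32835 annotated genes. The telobox was present in 15.1% (12.1% to 18.6%), 13.0% (11.3% to 14.9%), 19.4% (18.4% to 20.5%) and 13.5% in the same order. The G-box was found in 15.5% of the shared new peaks, the RY element in 5.16% and the CArG box in 4.30%, each with an interval that included the share in one or both of the other peak classes. Upstream of all genes the shares were 13.9%, 3.39% and 6.91%. The intervals of the RY element (3.49% to 7.56%) and the CArG box (2.80% to 6.55%) did not include them. A match is a description of the letters, and the median GC content of the windows was 39.3%, 38.5% and 38.4% in the 3 peak classes and 33% upstream of all genes.

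Target genes were all genes that a peak overlapped between 1000 bp upstream of the transcription start and the transcription end. The 465 peaks had 607 target genes, of which 551 are protein-coding and 44 pseudogenes; 27 peaks had none, 283 had 1 and 133 had 2. Of the 607, 86 also had a Col-0 peak elsewhere in the same span, among them LFY, the regulator of floral meristem identity. In Col-0 the target genes were low. Their median level over the 2 Col-0 libraries was 0.452 RPKM (CPM divided by the exon length in kilobases), with 57.3% under 1 RPKM, against 0.262 RPKM and 59.8% for targets of other new peaks, 0.229 RPKM and 60.7% for targets of peaks overlapping a Col-0 peak and 2.28 RPKM and 44.9% for all annotated genes. The Col-0 libraries taken singly gave medians of 0.365 and 0.327 RPKM for the target genes. Without the 86 genes the median was 0.530 RPKM.

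By keyword in the annotated product, 43 target genes (7.08%) matched the terms for transcription factors, against 8.51% of the targets of peaks overlapping a Col-0 peak and 4.74% of all genes. They include SPT16, annotated as a global transcription factor, which matched by the general term and not by a family of DNA-binding factors. The keywords were widened and corrected after values had been seen, and with the first-planned families alone the number was 32. Transporters were 4.61%, 3.02% and 2.18% in the same order, cytochrome P450 enzymes 2.14%, 1.53% and 0.789%, F-box proteins 4.45%, 4.65% and 2.03%, and kinases 4.28%, 2.94% and 4.20%. Pentatricopeptide proteins, which act on organelle RNA, were 0.494%, 0.422% and 0.862%. The 10 transcription factors under the peaks of highest score were NTT, HB-3 (AT2G33880, also known as WOX9, a homeobox factor of meristems and embryos), TCP1, SRS7 (of the SHI family), MYB86, TCP12, ZW2, MYB56, the myb-like AT3G25790 and BRC1. The other target genes of the 5 highest-scoring peaks were the kinase AT5G51800, MIZ1, which is needed for root hydrotropism, and ICL. The longest peak, 6479 bp, lay over AT3G21933, AT3G21937, the receptor kinase-like AT3G21940 and the cysteine-rich AT3G21945, and 13 of the 14 RNA-seq libraries of the study counted 0 reads on all 4 genes.

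Transcription was compared with edgeR's quasi-likelihood test over all 14 libraries, and 400 of the 607 target genes passed the filter on low counts among 22060 genes tested. The filter asks for enough reads in some libraries only, so a gene near silent in Col-0 can be tested because it is high in a mutant. The shares called higher carry that limit, and counts without the filter are given below. Calls used the study's combined criterion, a change of more than 1 on the log2 scale up or down and an unadjusted p under 0.05. The number of genes passing at 0.05 after Benjamini-Hochberg adjustment follows each count. Replicates of the LHP1 mutant lines are 2 lines, and nothing states that the other pairs came from separate plantings, so p-values measure the spread between these libraries. All comparisons share the Col-0 libraries.

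In clf-29, 25 of the 400 target genes (6.25%) were called higher and 4 (1.0%) lower, against 1.99% and 0.562% of all genes tested. The share called higher was 4.24% for targets of other new peaks and 4.86% for targets of peaks overlapping a Col-0 peak. At an adjusted p under 0.05 edgeR passed 0 target genes, with 41 at an unadjusted p under 0.05, and over all genes edgeR passed 0.0227% higher and 0.00453% lower. DESeq2 passed 10 target genes higher (1.87% of those with an adjusted p) and 0 lower, against 0.305% and 0.0441% of all genes. The median log2 fold change was 0.11 for the target genes and -0.02 for all genes. Without the first Col-0 library the counts were 42 and 18 (9.70% and 4.16%, against 5.14% and 2.91% of all genes), and without the first clf-29 library 39 and 10 (8.99% and 2.30%, against 3.41% and 0.871%). Of the 343 tested target genes with no Col-0 peak anywhere in their span, 21 were called higher and 4 lower. Markers of flowers moved with this comparison. The sum of AG, AP3, PI and SEP3 was 106 and 165 CPM in clf-29 and 1.61 and 1.87 CPM in Col-0, and all 4 genes were called higher; their part in the target gene counts was not tested.

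The genes called higher in clf-29 included the 3 TCP genes. TCP12 stood at 4.46 and 5.29 CPM in clf-29, against 0.703 and 1.13 CPM in Col-0 (log2 fold change 2.42 ± 0.39 SE, edgeR adjusted p = 0.20). TCP1 stood at 4.70 and 1.32 CPM, against 0.381 and 0.0491 CPM in Col-0 (3.68 ± 1.11, adjusted p = 0.96), and BRC1, which holds axillary buds dormant, at 0.749 and 5.24 CPM, against 0.234 and 0.491 CPM in Col-0 (3.06 ± 0.98, adjusted p = 0.99). All 3 genes were higher in both clf-29 libraries than in both Col-0 libraries, but the 2 clf-29 libraries differed several-fold for TCP1 and BRC1 and in opposite order. Without the first clf-29 library TCP1 had a log2 fold change of 2.48 and was no longer called; BRC1 was no longer called without the second clf-29 library (1.11), without the first Col-0 library (2.56) or in a fit of the 4 libraries alone (3.04). HB21, a homeobox gene known to act downstream of BRC1 in axillary buds, stood at 0.0899 and 4.31 CPM in clf-29 and 0 and 0.147 CPM in Col-0, so its groups overlapped. It was called, but not without the second clf-29 library (0.55) or the first Col-0 library (3.82), and it was named after its values were seen.

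LTP3 was the other large increase, at 11.1 and 16.3 CPM in clf-29, against 1.84 and 0.737 CPM in Col-0 (log2 fold change 3.36 ± 0.62, adjusted p = 0.32). The peak over it ended within the gene (chr5:23928587-23929738, gene chr5:23928954-23929816) and a Col-0 peak lay 899 bp away. LTP3 has a close paralogue beside it, and how reads shared by paralogues were counted is not given in the sources used here. The ribonuclease RNS3 stood at 7.49 and 3.08 CPM in clf-29, against 0.556 and 0.884 CPM in Col-0 (2.89 ± 0.72, adjusted p = 0.62), and the glycosyl hydrolase gene AT4G33810 at 5.78 and 2.11 CPM, against 0.615 and 0.442 CPM in Col-0 (2.88 ± 0.63, adjusted p = 0.55). Both genes were higher in every clf-29 library than in every Col-0 library. RNS3 is among the 86 genes whose span also holds a Col-0 peak, 17 bp from the shared new peak.

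The 4 genes called lower in clf-29 were AT3G16670, AT1G28080, AT4G22517 and ATYKT62. AT3G16670, of the pollen Ole e 1 family, stood at 45.6 and 17.3 CPM in clf-29, against 113 and 208 CPM in Col-0 (log2 fold change -2.35 ± 0.71, adjusted p = 0.92), and was not called without the second clf-29 library (-1.79). The RING finger gene AT1G28080 stood at 0.18 and 0.049 CPM, against 0.439 and 0.393 CPM in Col-0. In clf-29swn-21 AT1G28080 was called higher than in Col-0, a call lost in a fit of the 2 groups alone (1.59). ATYKT62, of the synaptobrevin family, stood at 0.030 and 0 CPM, against 1.20 and 0.0491 CPM in Col-0, so its call rests on the first Col-0 library. Leaving out either clf-29 library ended the call of ATYKT62, and leaving out the second clf-29 library or the first Col-0 library ended that of AT1G28080.

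In the LHP1 mutant lines, 21 target genes (5.25%) were called higher and 19 (4.75%) lower, against 2.01% and 1.93% of all genes tested. Targets of peaks overlapping a Col-0 peak were called higher in 5.66% and lower in 2.86%, and targets of other new peaks in 3.0% and 4.76%. At an adjusted p under 0.05 edgeR passed 0 target genes, with 49 at an unadjusted p under 0.05, and over all genes edgeR passed 0.0816% higher and 0.0181% lower. DESeq2 passed 11 target genes higher (2.70% of those with an adjusted p) and 9 lower (2.21%), against 0.681% and 0.528% of all genes. The median log2 fold change was 0.02 for the target genes and -0.02 for all genes. Both LHP1 mutant lines are labelled 21 °C, and against the first Col-0 library alone, which shares that label, 21 were called higher and 14 lower (4.84% and 3.23%, against 1.56% and 1.27% of all genes). Without the first Col-0 library the counts were 50 and 42 (11.5% and 9.70%, against 7.60% and 6.79%), and without lhp1-6 9 were called lower (2.07%, against 0.735%). Of the 343 tested target genes with no Col-0 peak in their span, 14 were called higher and 17 lower. The flower marker sum was 120 CPM in tfl2-2 and 151 CPM in lhp1-6, against 1.61 and 1.87 CPM in Col-0, and its part in the counts was not tested.

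**Figure D4:**
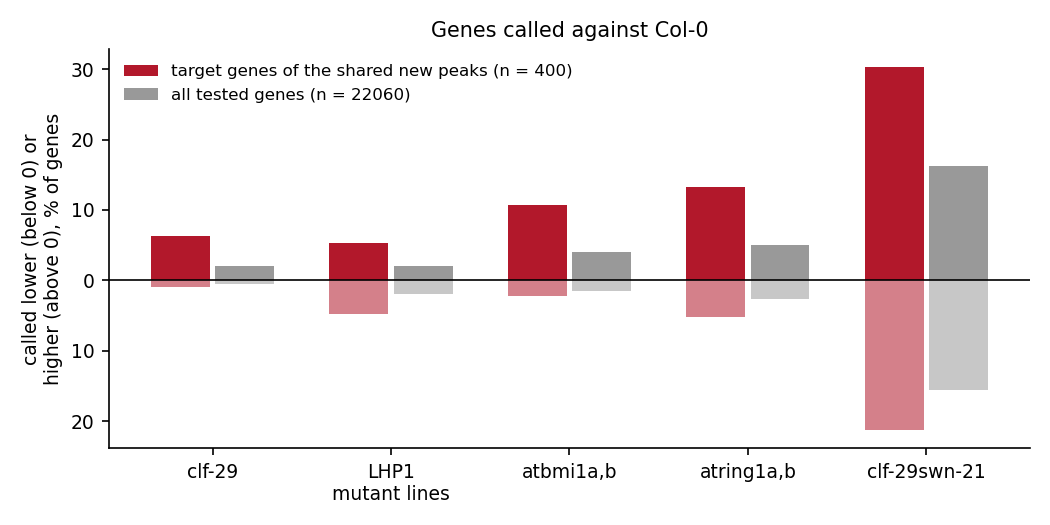
Percentage of genes called higher (above 0) or lower (below 0) against Col-0 for the 400 tested target genes of the shared new peaks and for all 22060 genes tested, in 5 comparisons that share the Col-0 libraries. The target genes stand at 6.25% higher in clf-29, 5.25% in the LHP1 mutant lines, 10.8% in atbmi1a,b, 13.3% in atring1a,b and, highest of the 5, 30.3% in clf-29swn-21.

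The TCP genes were even between the 2 LHP1 mutant lines. TCP1 stood at 3.51 CPM in tfl2-2 and 3.15 CPM in lhp1-6, against 0.381 and 0.0491 CPM in Col-0 (log2 fold change 3.82 ± 1.12, adjusted p = 0.52). BRC1 stood at 2.61 and 3.36 CPM in these lines, against 0.234 and 0.491 CPM in Col-0 (3.07 ± 0.97, adjusted p = 0.57), and TCP12 at 2.81 and 3.24 CPM, against 0.703 and 1.13 CPM in Col-0 (1.73 ± 0.39, adjusted p = 0.22). Each LHP1 mutant library was above each Col-0 library for all 3 genes. HB-3 stood at 1.33 CPM in tfl2-2 and 0.535 CPM in lhp1-6, against 0.117 and 0.147 CPM in Col-0 (2.81 ± 0.63, adjusted p = 0.22). SRS7 stood at 3.46 and 4.22 CPM, against 0.966 and 1.03 CPM in Col-0 (1.94 ± 0.39, adjusted p = 0.17). LFY, named after its values were seen, stood at 3.37 and 1.90 CPM, against 0.761 and 0.688 CPM in Col-0 (1.85 ± 0.64, adjusted p = 0.66). The call of BRC1 was lost without the first Col-0 library (2.57), and that of LFY without either Col-0 library (1.91 and 1.77) or without tfl2-2 (1.39). These 6 genes were the transcription factors called higher in the LHP1 mutant lines among 36 tested, and ZW2 was called lower; over all genes 2.01% were called higher and 1.93% lower. In clf-29, 5 of the 36 were called higher, namely the 3 TCP genes, HB21 and the myb-like AT5G56840, and 0 lower, against 1.99% and 0.562% of all genes. AT5G56840 stood at 2.67 and 16.6 CPM in clf-29, against 2.69 and 3.0 CPM in Col-0, so its groups overlapped, and without the second clf-29 library its log2 fold change was -0.063. These counts depend on the keywords: among the 26 tested genes of the first-planned families, which leave out TCP, SHI-related and LFY, 1 was called higher in the LHP1 mutant lines and 2 in clf-29, and 0 lower in both. In clf-29swn-21 LFY and AT5G56840 were lower than in Col-0, as given below.

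Outside the transcription factors, LTP3 stood at 13.0 CPM in tfl2-2 and 16.8 CPM in lhp1-6, against 1.84 and 0.737 CPM in Col-0 (log2 fold change 3.48 ± 0.62, adjusted p = 0.11). RNS3 (3.64 ± 0.73, adjusted p = 0.17) and AT4G33810 (3.61 ± 0.65, adjusted p = 0.11) were also called higher. The phosphatidylinositol 4-kinase-like gene AT5G24240 stood at 0.567 CPM in tfl2-2 and 5.97 CPM in lhp1-6, against 0.117 and 0.344 CPM in Col-0, and its call was lost without lhp1-6 (1.33). The first 3 of these genes were raised to a like level in both lines, and the last in lhp1-6 mainly.

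The genes called lower in the LHP1 mutant lines were largely lower in both lines than in both Col-0 libraries, in 18 of 19 cases. RAS1, named for its response to abscisic acid and salt, stood at 0.510 CPM in tfl2-2 and 0.386 CPM in lhp1-6, against 15 and 6.78 CPM in Col-0 (log2 fold change -4.59 ± 1.36, adjusted p = 0.51). The calcium-binding EF-hand gene AT3G01830 stood at 0.879 and 0.980 CPM, against 12.0 and 8.25 CPM in Col-0 (-3.44 ± 0.82, adjusted p = 0.29). BPS3 stood at 0.227 and 0.446 CPM, against 2.75 and 19.8 CPM in Col-0, and was not called without tfl2-2 or without the second Col-0 library. AT3G43250 stood at 0.227 and 0 CPM, against 0.644 and 1.82 CPM in Col-0, and ZW2 had 0 reads in both LHP1 mutant lines against 3 and 1 reads in Col-0. The calls of both rest on few reads: that of AT3G43250 was lost without lhp1-6 or the second Col-0 library, and that of ZW2 without tfl2-2, lhp1-6 or the first Col-0 library. ZW2 was called higher than in Col-0 in atring1a,b and clf-29swn-21. Its call in atring1a,b was lost with DESeq2 (2.34) and without the filter (2.26). The call in clf-29swn-21 was lost without either Col-0 library (3.24 and 2.46).

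The LHP1 mutant lines and clf-29 were also compared directly. Of the 400 target genes, 10 were called higher in the LHP1 mutant lines than in clf-29 and 25 lower, or 2.50% and 6.25%, against 0.585% and 2.85% of all genes tested. At an adjusted p under 0.05 edgeR passed 0 target genes, with 40 at an unadjusted p under 0.05, and over all genes 0.00907% higher and 0.0% lower; DESeq2 was not run on this contrast. Where a gene was called in one mutant only, a difference between the mutants is therefore not shown at the adjusted threshold. In swn-21, the mutant in SWN alone, 18 target genes were called higher and 14 lower than in Col-0 (4.5% and 3.5%), against 1.84% and 1.06% of all genes tested; edgeR passed 0 target genes and 0 of all genes at an adjusted p under 0.05, with 38 target genes at an unadjusted p under 0.05, and DESeq2 was not run on this contrast.

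**Figure D5:**
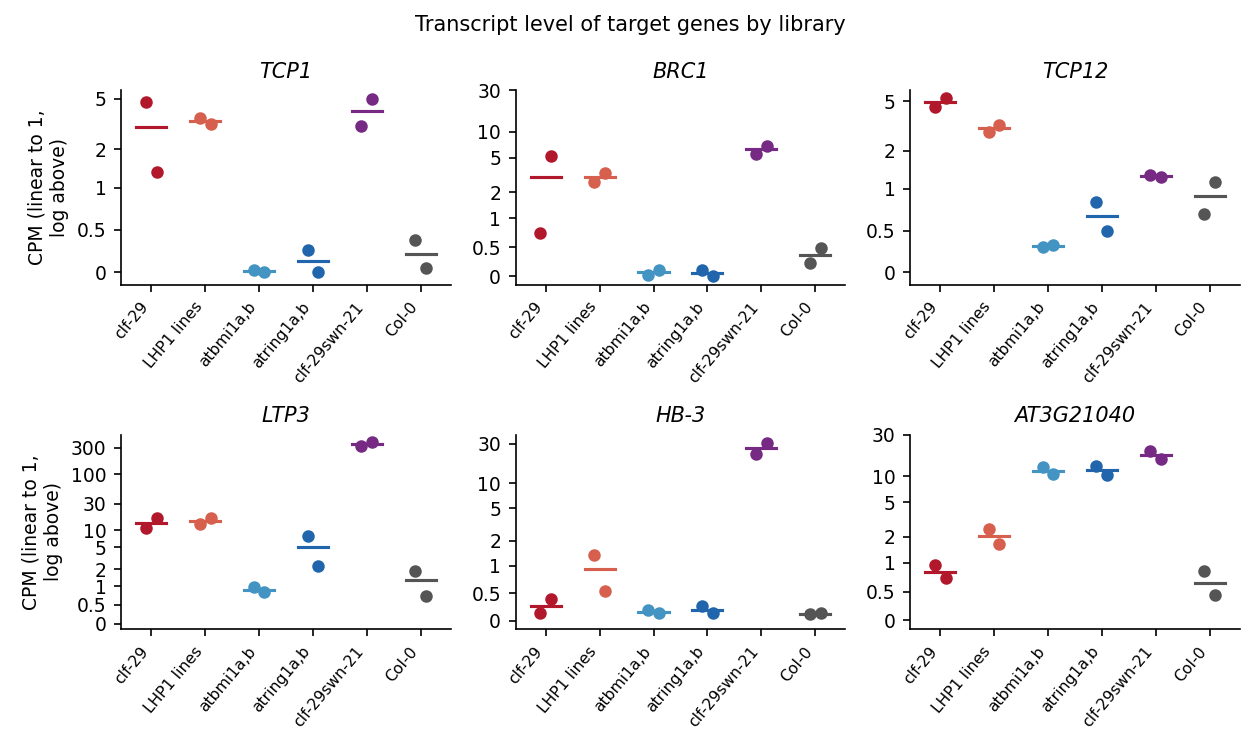
Transcript level of 6 target genes in CPM (linear up to 1, logarithmic above) in each library of 5 mutant groups and Col-0; points are libraries, first library left (tfl2-2 left and lhp1-6 right for LHP1 lines), and lines are means of 2. TCP1, BRC1 and TCP12 stand above Col-0 in clf-29 and the LHP1 mutant lines, and AT3G21040 stands at 10.3 to 19.3 CPM in atbmi1a,b, atring1a,b and clf-29swn-21.

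In the PRC1 double mutants, 43 target genes (10.8%) were called higher and 9 (2.25%) lower in atbmi1a,b, against 3.97% and 1.53% of all genes tested, and 53 (13.3%) higher and 21 (5.25%) lower in atring1a,b, against 5.01% and 2.60%. At an adjusted p under 0.05, 11 target genes were higher and 0 lower in atbmi1a,b and 17 were higher and 4 lower in atring1a,b, against 0.825% and 0.136% of all genes in atbmi1a,b and 1.26% and 0.145% in atring1a,b. The counts of genes higher were smaller in every fit that left out 1 library. In fits of the 4 libraries alone, 0 target genes passed at an adjusted p under 0.05 in either mutant. Over all genes in these fits, 0 of 20385 passed in atbmi1a,b and 0 of 20467 in atring1a,b. DESeq2 passed 23 higher and 5 lower in atbmi1a,b (5.64% and 1.23%, against 2.0% and 0.546% of all genes) and 30 and 10 in atring1a,b (7.35% and 2.45%, against 2.8% and 1.23%). Targets of peaks overlapping a Col-0 peak were called higher in 10.8% and 14%. None of the 3 TCP genes was called higher in either. TCP12 stood at 0.298 and 0.332 CPM in atbmi1a,b, against 0.703 and 1.13 CPM in Col-0 (log2 fold change -1.52 ± 0.41, adjusted p = 0.19), and was called lower. BRC1 stood at 0.0271 and 0.111 CPM in atbmi1a,b and 0.106 and 0 CPM in atring1a,b, and TCP1 at 0.0271 and 0 CPM and 0.264 and 0 CPM, and neither gene was called. Seed markers moved with these comparisons. The sum of CRA1, OLEO1 and 2S3 was 86.6 and 16.6 CPM in atbmi1a,b and 1283 and 94.8 CPM in atring1a,b, against 3.51 and 0.0983 CPM in Col-0, and its part in the counts was not tested. Called lower in atbmi1a,b were 15 target genes without the first Col-0 library (3.46%, against 2.29% of all genes) and 18 without the first atbmi1a,b library (4.16%, against 2.76%), and in atring1a,b 12 without the second Col-0 library (2.76%, against 1.66%).

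The target genes named here are those with the smallest adjusted p among genes that rose in atbmi1a,b or in atring1a,b. AT3G21020, AT3G21030 and AT3G21040, annotated as pseudogenes, lie in a row with AT3G21010 under a member of 5963 bp (chr3:7365909-7371871) and, for AT3G21040, a second member beside it. AT3G21040 stood at 12.6 and 10.6 CPM in atbmi1a,b and 13.1 and 10.3 CPM in atring1a,b, against 0.849 and 0.442 CPM in Col-0 (log2 fold changes 4.13 ± 0.38 and 4.14 ± 0.38, adjusted p = 0.0013 and 0.0018). AT3G21020 rose by 2.58 ± 0.25 and 2.04 ± 0.24, and AT3G21030 by 3.6 ± 0.36 and 3.32 ± 0.36, on the log2 scale in atbmi1a,b and atring1a,b. Every library of both mutants was above every Col-0 library for these 3 genes, which sit side by side and may share reads. AT3G21010 also rose in both (2.10 ± 0.24 with adjusted p = 0.0038, and 1.76 ± 0.23 with adjusted p = 0.010). In atring1a,b the adjusted p of AT3G21010 and AT3G21020 was 0.080 and 0.057 without the second Col-0 library.

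The other 2 genes were near silent in Col-0. AT1G27580, an F-box gene, stood at 11.4 and 14.9 CPM in atbmi1a,b and 9.95 and 6.55 CPM in atring1a,b, against 0.0585 and 0.0983 CPM in Col-0 (adjusted p = 0.0014 and 0.0029). AT1G74140, annotated as a rhomboid-related serine protease, stood at 79.5 and 72.5 CPM in atbmi1a,b and 22.9 and 13.1 CPM in atring1a,b, against 0.0585 and 0 CPM in Col-0 (adjusted p = 0.0023 and 0.0065). In clf-29 and the LHP1 mutant lines both genes stood at or below 0.267 CPM. In clf-29swn-21 AT1G27580 stood at 0.226 and 0.482 CPM and AT1G74140 at 0.0968 and 0 CPM.

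Lower in atring1a,b at an adjusted p under 0.05 were AT5G05600, an oxygenase gene, and 3 lipid-transfer genes in a row on chromosome 4. AT5G05600 stood at 33.8 and 24.5 CPM, against 209 and 190 CPM in Col-0 (log2 fold change -2.77 ± 0.45, adjusted p = 0.022). AT4G22517 stood at 0.871 and 0.936 CPM in atring1a,b, against 4.16 and 6.53 CPM in Col-0 (-2.56 ± 0.44, adjusted p = 0.026), AT4G22520 at 7.73 and 6.11 CPM, against 16.7 and 26.2 CPM (-1.63 ± 0.29, adjusted p = 0.031), and AT4G22513 at 12.1 and 9.51 CPM, against 25.4 and 39.4 CPM (-1.58 ± 0.30, adjusted p = 0.038). None of the 4 kept an adjusted p under 0.05 when either atring1a,b library or the second Col-0 library was left out, where it lay between 0.080 and 0.213. The 3 lipid-transfer genes share 1 peak (chr4:11854488-11857824), resemble each other in annotation, and AT4G22513 and AT4G22517 lie within AT4G22510 on the opposite strand, which counted 0 reads in clf-29, the LHP1 mutant lines, atbmi1a,b, atring1a,b, clf-29swn-21 and Col-0. They also had lower values in clf-29 (-1.02, -0.86 and -0.89) and in the LHP1 mutant lines (-1.30, -1.45 and -1.37 for AT4G22517, AT4G22520 and AT4G22513). AT4G22517 was called in both and the other 2 in the LHP1 mutant lines. In clf-29 the call of AT4G22517 was lost without the second clf-29 library (-0.73) and without the second Col-0 library (-0.66). It was also lost with a replicate block (-0.96), with a temperature term (-0.95) and in a fit of the 2 groups alone (-1.03). In the LHP1 mutant lines the call of AT4G22517 was lost without the second Col-0 library (-0.96) and without lhp1-6 (-1.20).

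In clf-29swn-21, 121 target genes (30.3%) were called higher and 85 (21.3%) lower, against 16.3% and 15.6% of all genes tested, and at an adjusted p under 0.05 they were 110 and 71, against 16.9% and 15.7% of all genes. Of the targets of peaks overlapping a Col-0 peak 34.1% were called higher and 14.2% lower. ICL stood at 2659 and 2277 CPM in clf-29swn-21, against 0.0293 and 0.147 CPM in Col-0 (adjusted p = 1.0e-04), and at 5.54 and 3.10 CPM in atring1a,b (adjusted p = 0.028 against Col-0, and 0.080 to 0.107 without the first atring1a,b library or either Col-0 library). LTP3 stood at 325 and 374 CPM in clf-29swn-21, against 1.84 and 0.737 CPM in Col-0, HB-3 at 22.6 and 30.4 CPM, against 0.117 and 0.147 CPM, and SRS7 at 32.8 and 38.6 CPM, against 0.966 and 1.03 CPM (log2 fold changes 8.04 ± 0.75, 7.62 ± 0.68 and 5.16 ± 0.43, adjusted p of 0.00015, 0.00013 and 0.00010). All of these stood far above the spread of the Col-0 libraries. TCP1 (4.09 ± 1.13, adjusted p = 0.024) and BRC1 (4.13 ± 1.0, adjusted p = 0.012) also passed the adjusted test, and TCP12 did not (0.47 ± 0.39, adjusted p = 0.38). The adjusted p of TCP1 was 0.051 to 0.082 without either clf-29swn-21 library or the second Col-0 library, and that of BRC1 was 0.069 without the first Col-0 library. NTT (2.48 ± 0.41, adjusted p = 0.0017), MYB56 (4.43 ± 0.88, adjusted p = 0.0048) and MIZ1 (2.24 ± 0.45, adjusted p = 0.0050) rose as well.

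Among genes that fell in clf-29swn-21, ZFP8, a zinc finger factor of trichome formation, stood at 1.74 and 3.21 CPM, against 36.7 and 32.1 CPM in Col-0 (log2 fold change -3.81 ± 0.32, adjusted p = 0.00010), and OFP16, of the ovate family, at 1.68 and 1.66 CPM, against 12.8 and 12.9 CPM in Col-0 (-2.94 ± 0.29, adjusted p = 0.00018). AT4G22513 fell to 0.516 and 0.696 CPM, against 25.4 and 39.4 CPM in Col-0 (-5.75 ± 0.37, adjusted p = 5.1e-05). LFY, called higher in the LHP1 mutant lines, and AT5G56840, called higher in clf-29, were lower as well, with an edgeR adjusted p under 0.05. In a fit of the 2 groups alone their log2 fold changes were -2.55 and -2.40, with adjusted p = 0.078 and 0.070. Markers of other organs differed widely in this comparison. Summed seed markers stood at 5889 and 8802 CPM in clf-29swn-21 and 3.51 and 0.0983 CPM in Col-0. Flower markers stood at 261 and 426 CPM and 1.61 and 1.87 CPM, and 5 root markers at 3133 and 1556 CPM and 362 and 607 CPM. The root sum was nearly all BGLU23, at 3105 and 1554 CPM in clf-29swn-21 and 361 and 605 CPM in Col-0. Of 3 root markers tested, BGLU23 and CASP1 were called higher. CASP1 stood well above Col-0 in the first clf-29swn-21 library only. In the second it stood at 0.696 CPM, against 0.351 and 0.688 CPM in Col-0. The part of these markers in the counts was not tested.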

How the data were processed

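Peak lists and RNA-seq counts of Arabidopsis seedlings were analysed. The authors mapped ChIP-seq reads to TAIR10 with BWA, ran MACS on every library by itself and deposited each peak with a score, whose scale is not given in the sources used here and which was used to rank peaks within a list. For RNA-seq the authors used TOPHAT and the same build, and the deposited values are raw read counts of each gene; the submitters' processing notes name HTSeq, DESeq and FastQC. Reads on no single gene, 2.66% to 3.43% of a library, were left out. A deposited table of log2 fold changes and p-values between libraries was not used. The 5 control libraries without antibody were not analysed here.

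The peaks, gene lists and tests were chosen with earlier results of these data known. Of 33602 genes in the count files, 32835 (97.7%) matched RefSeq's TAIR10.1 annotation, whose 5 nuclear chromosomes are at least as long as the last peak on each. Counts were fitted in R 4.3.3 with edgeR 4.0.16 (TMM, filterByExpr, robust quasi-likelihood test, 7 groups), with DESeq2 1.42.0 as an alternative, and adjusted over all genes tested. CPM used TMM library sizes, and RPKM divided these by merged exon length. Peak overlaps and 95% Wilson intervals came from statsmodels 0.14.6, pandas 2.3.3 and numpy 2.4.6 under Python 3.11.15, and plots from matplotlib 3.10.9. No column of another sample was met. The scripts were tested on simulated data. Sample precision follows from 17277027 to 36205758 reads on genes, and the deposited peak lists hold no read totals; the read statistics that the study gives for ChIP-seq were not used here.

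Genes named were, in clf-29 and the LHP1 mutant lines, up to 5 target genes called in each direction with the largest change and the same direction in every pair of libraries; in any of the 5 comparisons, the 5 with the smallest adjusted p below 0.05 in each direction; target genes of the 5 highest-scoring and 5 longest peaks; up to 10 transcription factors by peak score; and the PcG genes. The product keywords for transcription factors were extended (TCP, SHI-related, LEAFY, GATA, Integrase-type and the general term) and corrected after transcript values had been seen, and TCP1, BRC1, TCP12, SRS7 and LFY count only through the added terms, so these counts are no independent support. Alternatives were RLE factors, no filter, a replicate block, a temperature term, only the 2 groups compared, each library left out, other peak and target rules and a 500 bp motif window; the score classes and the target genes without a Col-0 peak were added after seeing the data.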

Additional observations from a re-analysis of the deposited data

Results flagged for a closer look

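The single genes of the swn-21 libraries enter none of the comparisons above, which give only the 18 target genes called higher and 14 lower. Among the target genes named, 5 were called higher in swn-21 than in Col-0, with both swn-21 libraries above both Col-0 libraries, and none of them passed at an edgeR adjusted p under 0.05. AT3G21030 stood at 4.57 and 4.44 CPM in swn-21, against 0.820 and 0.835 CPM in Col-0 (log2 fold change 2.44 ± 0.35, adjusted p = 0.30). AT3G21040 stood at 2.56 and 2.96 CPM, against 0.849 and 0.442 CPM in Col-0 (2.06 ± 0.36, adjusted p = 0.51). AT3G21020 and AT3G21010 had log2 fold changes of 1.57 ± 0.24 and 1.52 ± 0.23 (adjusted p = 0.30 for each). These 4 pseudogenes lie side by side and may share reads. AT1G27580 had a log2 fold change of 1.95 ± 0.72 (adjusted p = 0.87) at 0.452 and 0.164 CPM, against 0.0585 and 0.0983 CPM in Col-0, which is a few reads in each library. The other 4 named genes called were lower in swn-21, each with an adjusted p of 0.87. LTP3 stood at 0.151 and 0.493 CPM in swn-21, against 1.84 and 0.737 CPM in Col-0 (log2 fold change -1.98 ± 0.73), and MYB56 at 0.251 and 0.164 CPM, against 1.55 and 0.246 CPM (-2.15 ± 0.95). TCP1 stood at 0 and 0 CPM, against 0.381 and 0.0491 CPM in Col-0, and ATYKT62 at 0.0502 and 0 CPM, against 1.20 and 0.0491 CPM, so its groups overlapped and both calls rest on few reads.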

How the results depend on the processing

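With a score of 100 or more in the 3 mutant lists, 160 peaks with 206 target genes remained by the rule, and 72.5% of them had a peak in the second clf-29 list and 87.5% in the first atring1a,b list. With only the first Col-0 list excluded, the shares were 72.6% in the second clf-29, 32.0% in the second atbmi1a,b and 8.66% in the second atring1a,b list. With the second clf-29 list in place of the first, they were 23.6% in the first atbmi1a,b and 73.1% in the first atring1a,b list, and with no Col-0 peak within 1000 bp 77.6% in the first atring1a,b list. The median Col-0 level of target genes was 0.557 RPKM with 50% of the peak covered, 0.560 RPKM with the first Col-0 list only, 0.707 RPKM with the second clf-29 list, 0.530 RPKM with no Col-0 peak within 1000 bp and 0.374 RPKM with the peak centre placing the target. In a 500 bp window the motif shares were 8.60% (telobox), 11.8% (GA repeat), 2.58% (RY element), 8.39% (G-box) and 1.51% (CArG box), since a shorter window holds fewer letters.

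Without the filter on low counts 542 target genes and 27703 genes in all were tested. Called higher and lower in clf-29 were then 5.17% and 0.738% of the target genes, against 1.69% and 0.56% of all genes. The LHP1 mutant lines gave 4.06% and 3.69%, against 1.69% and 1.62%. Shares were 8.67% and 2.03% in atbmi1a,b, against 3.37% and 1.39%, and 10.3% and 4.24% in atring1a,b, against 4.3% and 2.25%. They were 26.4% and 16.4% in clf-29swn-21, against 14.4% and 12.9%. In a fit of the 2 groups alone, 2 target genes were called lower in clf-29 (0.592%, against 0.198% of all genes), and 35 higher and 13 lower of 347 tested in atring1a,b, against 3.32% and 1.51% of all genes. In atbmi1a,b, 15 were called lower by DESeq2 (2.77%, against 1.57%) and 16 with a growth temperature term (4.0%, against 1.93%). That term gave 23 higher and 6 lower in clf-29 (5.75% and 1.5%, against 2.47% and 0.603% of all genes). In the LHP1 mutant lines it gave 29 and 21 (7.25% and 5.25%, against 2.35% and 1.8%). Leaving out single libraries gave 17 to 42 higher and 4 to 18 lower in clf-29, 17 to 50 and 9 to 42 in the LHP1 mutant lines, 12 to 18 lower in atbmi1a,b and 12 to 31 lower in atring1a,b. Over all genes the same fits called 0.971% to 5.14% higher and 0.437% to 2.91% lower in clf-29, 1.27% to 7.60% and 0.735% to 6.79% in the LHP1 mutant lines, 1.18% to 2.76% lower in atbmi1a,b and 1.49% to 7.23% lower in atring1a,b. Where a group keeps 1 library, it is assumed to vary like the others. Same-numbered libraries deviated together by correlations of 0.27 to 0.74 among clf-29, atbmi1a,b, atring1a,b and Col-0 and by -0.13 to 0.06 in pairs with clf-29swn-21 or swn-21, and the numbers are not known to mark a shared planting. With a replicate block, 16 were called lower in atbmi1a,b (4.0%, against 1.73% of all genes), against 9 without it. In clf-29 the block gave 23 called higher and 6 lower (5.75% and 1.5%, against 2.29% and 0.571% of all genes). Over 95 pairs of a named gene and a comparison that were called or passed the adjusted test, 864 alternative values kept their side of the combined criterion, 73 lost the call and 1 changed sign, AT5G56840 in clf-29, at -0.063 without the second and 2.53 without the first clf-29 library. Of 48 pairs with an adjusted p under 0.05, 407 of 476 alternative values stayed under it, and in fits of the 2 groups alone 23 of 46 did. In those fits no named pair in atbmi1a,b or atring1a,b passed, and no other gene tested in these 2 comparisons did. The causes were not tested. The peak files hold no reads, so a region missing from a list was not called, which is not the same as unmarked.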
